A study of Homo sapiens with 6 samples.

Results

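Newly made collagen chains are folded in the endoplasmic reticulum (ER) with the help of prolyl isomerases, a collagen-specific chaperone and hydroxylases of proline and lysine. The 10 genes described here encode such proteins: the FK506-binding isomerases FKBP14, FKBP7, FKBP10, FKBP9 and FKBP11, the chaperone SERPINH1, the lysyl hydroxylases PLOD1 and PLOD2 and the prolyl hydroxylase subunits P4HA1 and P4HA2. They were chosen by name, with the difference between the groups of arrays already known, and every probe set annotated to 1 of these symbols alone was taken. This gave 20 of the 54613 probe sets on the arrays and 10 of the 19775 genes with such a probe set. Because the choice was made with the comparison in view, the members' differences are given as descriptions without p-values.

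Expression was measured on 6 Affymetrix HG-U133 Plus 2.0 arrays, each hybridised with RNA from cells labelled HepG2, an established line grown out of a human hepatoblastoma. Cells had been transfected by lipid reagent with a negative control siRNA (3 arrays) or with an siRNA against RNF43 (3 arrays), and RNA was extracted 48 h later from both. RNF43, a ubiquitin ligase of the cell surface, removes Wnt receptors from it. The titles name biological replicates and say nothing of separate cultures, so each p-value reflects only how these arrays scatter, which may be technical. Each group rests on 1 siRNA sequence. The antisense strands, which guide silencing, are shown with bases 2 to 8, the seed that pairs first with a target, in capitals:
RNF43 siRNA: aUAAUAGCuuucuguucugtt
negative control siRNA: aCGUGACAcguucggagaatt

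Both labels were checked against the arrays. RNF43 went against its label. Its single probe set read 7.65, 7.79 and 7.45 on the control arrays and 8.19, 8.22 and 8.41 on the arrays labelled RNF43 siRNA, which is 1.56-fold higher (log2 difference 0.64, SE 0.14), and limma gave an adjusted p = 0.0098. The groups did not overlap, for which an exact permutation test (two-sided) has p = 0.1, the lowest value 3 against 3 arrays can reach. The label HepG2 also went against the defining genes of that line. Of 10 liver genes, 9 lay below the signal filter used here (a mean log2 signal of 5.83, the middle of all probe sets): ALB, APOA1, APOB, TTR, TF, SERPINA1, FGB, AHSG and GPC3. Albumin read between 3.82 and 4.43 over the 6 arrays, and AFP, the fetal albumin counterpart, read 6.12 to 7.13 and was the 1 that passed. Of 10 genes listed for fibroblasts and stellate cells, 6 passed, among them LUM, a proteoglycan of collagen matrix, at 13.07 to 13.43 and COL1A1 at 10.27 to 10.73, while COL1A2, PDGFRB, THY1 and POSTN lay below the filter. The COL1A1 level is that of its brightest probe set, and its other probe sets had far lower means, 5.37 to 7.37. The cells are therefore called by their label only, and lower and higher below compare arrays by their siRNA label, not by a measured loss of RNF43.

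Collagen is a triple helix in which glycine recurs along the chain and many other residues are proline. Prolines must take the trans form before the helix can close, which isomerases speed up. Prolyl 4-hydroxylation keeps the helix stable at body temperature, and lysyl hydroxylation prepares crosslinks and sites for sugars. SERPINH1 binds the folded helix in the ER. The hydroxylases need iron, oxygen, 2-oxoglutarate and ascorbate.

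Promoters were read from a table of RefSeq windows (GRCh38.p14), in which 8 of the 10 members were matched, all but FKBP14 and FKBP10. The 250 bases before the start are shown for FKBP7 and P4HA2, which had the lowest differences among members with an entry, for SERPINH1, and for PLOD2, which did not differ between the groups beyond its spread. Capitals mark any of 7 motifs searched on both strands. They were the CCAAT box, the TATA box written TATAAA, and GACGTG, a form of the hypoxia response core that lies within the unfolded protein response element TGACGTGG. The others were TGATGNAA, which ATF4 and CHOP read, the ER stress response element, which includes CCAAT, and the heat shock element. Coordinates are chr2:178478601-178478850 (minus strand) for FKBP7, chr5:132227092-132227341 (minus) for P4HA2, chr11:75562003-75562252 (plus) for the first of 2 SERPINH1 starts and chr3:146161185-146161434 (minus) for PLOD2. Each is written in the direction of its gene:
FKBP7: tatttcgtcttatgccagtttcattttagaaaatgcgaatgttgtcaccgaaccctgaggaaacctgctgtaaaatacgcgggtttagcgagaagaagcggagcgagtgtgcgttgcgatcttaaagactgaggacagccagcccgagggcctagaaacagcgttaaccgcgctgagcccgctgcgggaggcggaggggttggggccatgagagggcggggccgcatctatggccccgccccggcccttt
P4HA2: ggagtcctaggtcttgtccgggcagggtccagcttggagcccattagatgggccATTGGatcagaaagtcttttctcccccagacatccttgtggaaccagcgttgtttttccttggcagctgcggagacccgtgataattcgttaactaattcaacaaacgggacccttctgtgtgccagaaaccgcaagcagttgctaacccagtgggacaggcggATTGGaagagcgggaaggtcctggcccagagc
SERPINH1: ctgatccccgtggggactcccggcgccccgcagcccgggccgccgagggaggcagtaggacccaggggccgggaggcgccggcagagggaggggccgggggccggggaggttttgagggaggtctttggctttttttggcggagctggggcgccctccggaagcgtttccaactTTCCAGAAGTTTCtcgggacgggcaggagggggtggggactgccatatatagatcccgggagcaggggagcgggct
PLOD2: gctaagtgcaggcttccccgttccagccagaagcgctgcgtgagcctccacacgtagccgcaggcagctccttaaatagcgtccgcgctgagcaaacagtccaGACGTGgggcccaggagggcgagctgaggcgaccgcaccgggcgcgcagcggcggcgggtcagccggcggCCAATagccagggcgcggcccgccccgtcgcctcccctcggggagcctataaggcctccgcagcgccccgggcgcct

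No member window held the ER stress response element, the unfolded protein response element or the ATF4 and CHOP motif in these letters, which 0.074%, 0.612% and 3.14% of all 35116 windows of this length held. The heat shock element stood in the SERPINH1 window at -76 to -64, and 0.441% of all windows held one. SERPINH1 is a classical heat shock gene. GACGTG stood in the PLOD2 window at -147 to -142 and in the window of the other SERPINH1 start, against 6.5% of all windows. Other forms of the hypoxia response core were not searched, so a window without GACGTG may still hold one. CCAAT was found in 4 of the 10 member windows, against 32% of all windows. These were the windows of FKBP9, P4HA2, PLOD2 and the other SERPINH1 start. TATAAA was found for P4HA1 alone (10.7% of all windows). The FKBP7 window held none of the 7. A match is a description of the letters and not a shown binding site.

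Most members read lower on the arrays labelled RNF43 siRNA. The brightest probe set of 8 of the 10 was lower and that of PLOD2 and FKBP11 slightly higher, with a median log2 difference of -0.49, or 1.40-fold lower, against -0.0028 over all 11853 genes tested, of which 50.5% lay below 0. In limma's fit over all genes these 8 passed an adjusted p of 0.05, and 11.1% of all genes tested passed it in that direction (11.5% in the other, with 0 members). The groups did not overlap in the same 8, as in 19.8% of all genes tested in that direction (19.1% in the other). For 6 of the members the brightest probe set ends in _s_at, a mark of probes that can detect several transcripts. Neither count is support, since the members were chosen from this comparison. FKBP9 did not pass with arrays centred on their medians, without control siRNA replicate 1 or without RNF43 siRNA replicate 2, and SERPINH1 did not without control siRNA replicate 2. Without probe sets ending in _x_at or _s_at 5 passed, since FKBP10 and SERPINH1 then had no probe set and P4HA1 only a dim one.

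**Figure D1:**
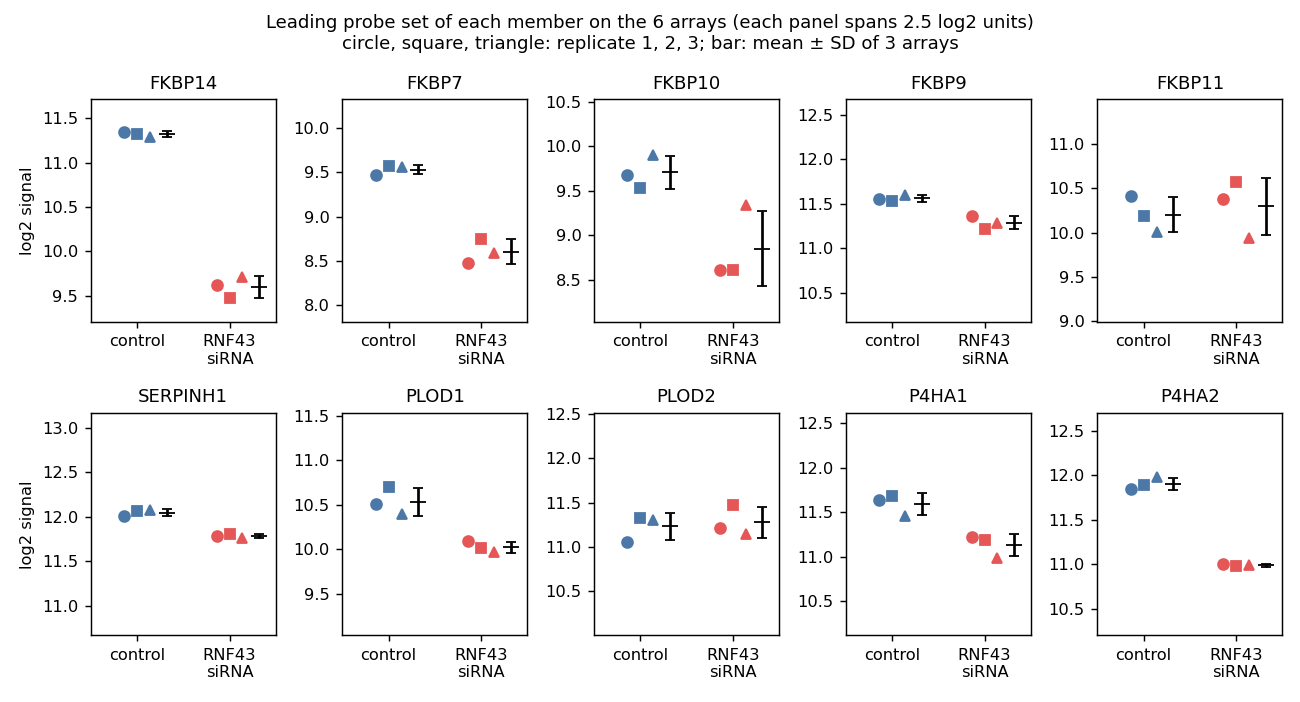
Log2 signal of the brightest probe set of each member (1 panel per gene) on the 3 control and 3 RNF43 siRNA arrays, with the mean ± SD of each group. The gap is widest for FKBP14, the arrays overlap for FKBP11 and PLOD2, and the third RNF43 siRNA array of FKBP10 stands above the other two.

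Among the isomerases, FKBP14 had the lowest difference. FKBP14 is an ER-lumenal prolyl isomerase with calcium-binding EF hands, and its loss causes a form of Ehlers-Danlos syndrome with kyphoscoliosis. Its brightest probe set read 11.35, 11.32 and 11.28 on the control arrays and 9.62, 9.47 and 9.72 on the RNF43 siRNA arrays. The groups lay far apart, with 1.57 log2 units between the lowest control and the highest RNF43 siRNA array. The means were 11.32 ± 0.03 and 9.60 ± 0.12 (SD, n = 3), a 3.28-fold lower signal (log2 difference -1.72, SE 0.08). Only 8 of the 11853 genes tested had a lower difference. That rank is no support, since FKBP14 was chosen with this comparison known. It also rests on the brightest probe set, and the further FKBP14 probe sets had smaller differences.

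FKBP7, a related ER isomerase that binds the chaperone BiP, came next. It read 9.47, 9.57 and 9.55 on the control arrays and 8.48, 8.75 and 8.59 on the others. All control arrays stood above all RNF43 siRNA arrays, and the signal was 1.90-fold lower (log2 difference -0.92, SE 0.10).

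FKBP10, also called FKBP65, assists type I procollagen and the lysyl hydroxylase PLOD2, and its mutation causes brittle bone disease. Its only probe set read 9.68, 9.53 and 9.90 on the control arrays and 8.61, 8.61 and 9.34 on the RNF43 siRNA arrays. The third RNF43 siRNA array was the high one and lay 0.20 log2 units under the lowest control. The signal was 1.81-fold lower (log2 difference -0.86, SE 0.19), with the largest spread of any member, 0.42 (SD, n = 3) on the RNF43 siRNA arrays. Without that array the log2 difference was -1.10.

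FKBP9 resembles FKBP10 in carrying several isomerase domains. It read 11.55, 11.53 and 11.60 on the control arrays and 11.36, 11.22 and 11.28 on the RNF43 siRNA arrays, again without overlap. The signal was 1.21-fold lower (log2 difference -0.27, SE 0.07). A transcribed pseudogene, FKBP9P1, resembles FKBP9, and the probe set may not tell them apart.

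FKBP11, an ER isomerase abundant in secretory cells, was the exception among the isomerases. It read 10.41, 10.18 and 10.01 on the control arrays and 10.37, 10.57 and 9.94 on the RNF43 siRNA arrays. The groups overlapped, with the lowest and the highest array both in the RNF43 siRNA group. The log2 difference was 0.09 (SE 0.15).

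SERPINH1, also called HSP47, is the chaperone that binds folded procollagen. It read 12.01, 12.06 and 12.08 on the control arrays and 11.78, 11.81 and 11.76 on the RNF43 siRNA arrays. The difference was small but the arrays of each group lay close together, with SDs of 0.04 and 0.02 (n = 3), so that the groups did not overlap. The signal was 1.20-fold lower (log2 difference -0.27, SE 0.06).

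The lysyl hydroxylases differed from each other. PLOD1 acts on lysines of the helix, and read 10.51, 10.70 and 10.39 on the control arrays and 10.09, 10.01 and 9.97 on the RNF43 siRNA arrays. It was lower on every RNF43 siRNA array, by 1.43-fold (log2 difference -0.51, SE 0.09). PLOD2 acts on lysines of the telopeptides at the ends of the chain, and read 11.06, 11.33 and 11.31 against 11.21, 11.48 and 11.14. These groups overlapped, with a log2 difference of 0.04 (SE 0.10).

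P4HA1 and P4HA2 are alternative catalytic subunits of prolyl 4-hydroxylase. P4HA1 read 11.64, 11.69 and 11.46 on the control arrays and 11.21, 11.19 and 10.99 on the RNF43 siRNA arrays. It was 1.38-fold lower (log2 difference -0.46, SE 0.09) without overlap. P4HA2 read 11.85, 11.89 and 11.98 on the control arrays and 11.01, 10.97 and 10.99 on the RNF43 siRNA arrays. The RNF43 siRNA arrays lay close together (SD 0.02, n = 3), and the signal was 1.89-fold lower (log2 difference -0.92, SE 0.07).

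Ordered by the differences of their brightest probe sets, FKBP14 stood 0.79 log2 units below FKBP7, which was 5.92 times the joint SE of that gap. That distance rests on the choice of probe set, since the second FKBP14 probe set had a log2 difference of -0.93, and averaged over probe sets FKBP14 was at -1.32 and FKBP7 at -1.21. FKBP7, P4HA2 and FKBP10 followed within gaps of 0.01 and 0.06, each under 1 joint SE. The gaps from FKBP10 to PLOD1 (0.34) and from P4HA1 to FKBP9 (0.19) were 1.65 and 1.68 joint SEs. PLOD1 and P4HA1 did not differ beyond their errors, nor did FKBP9 and SERPINH1, nor PLOD2 and FKBP11. SERPINH1 and PLOD2 were 0.31 apart, or 2.55 joint SEs. A joint SE combines the SEs of both genes as if they were independent, though both were read on the same 6 arrays. It is thus only a rough scale for a gap. These are descriptions of differences on separate probe sets and carry no test.

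The other 10 probe sets of the members, shown in the plot of differences by probe set, did not always repeat the brightest one. Of these, 7 passed the signal filter, 3 of them called lower in a fit over 22660 probe sets, where 8.65% of all were called lower, 9.01% higher and 51.1% lay below 0. FKBP14 was lower on each of its 3 probe sets, but by different amounts. Its second probe set read 10.37, 10.60 and 10.49 on the control arrays and 9.60, 9.65 and 9.42 on the RNF43 siRNA arrays (log2 difference -0.93, SE 0.10). The third read 8.97, 9.20 and 8.83 against 7.49, 7.73 and 7.83 (log2 difference -1.32, SE 0.14). The 3 FKBP14 differences thus spanned 0.78 log2 units, from 1.91-fold to 3.28-fold lower, and the groups did not overlap on any of them.

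**Figure D2:**
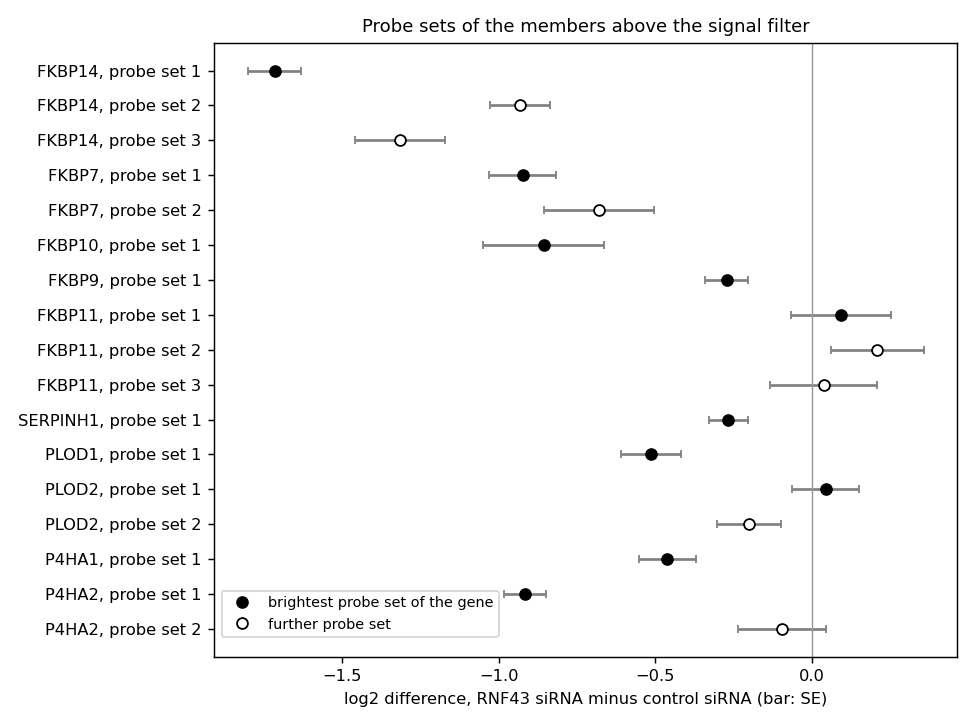
Log2 difference between the group means, RNF43 siRNA minus control siRNA, of the 17 member probe sets above the signal filter, with the SE of the fit over all probe sets. Probe sets are numbered by brightness within a gene, and those of FKBP14 and FKBP7 lie left of 0 while those of P4HA2 lie 0.82 log2 units apart.

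FKBP7 was lower on both probe sets that passed, the second reading 7.80, 7.87 and 8.17 on the control arrays and 7.31, 7.03 and 7.47 on the others (log2 difference -0.68, SE 0.18). The P4HA2 probe sets were discordant. The second P4HA2 probe set read 7.74, 7.81 and 7.89 on the control arrays and 7.81, 7.77 and 7.57 on the RNF43 siRNA arrays (log2 difference -0.10, SE 0.14), so that the groups overlapped where the brightest probe set had split them by 0.84 log2 units. The second PLOD2 probe set pointed the other way from the first, at a log2 difference of -0.20 (SE 0.10) with overlapping groups. The 3 FKBP11 probe sets lay between 0.04 and 0.21 and overlapped on each. The third FKBP7, the second P4HA1 and the third P4HA2 probe set had means of 3.62, 4.45 and 4.13, below the filter, with group SDs of up to 1.34, and are given no fold. When a gene's probe sets, dim ones included, were averaged in place of taking the brightest, FKBP14 had a log2 difference of -1.32, FKBP7 of -1.21 (its dim probe set alone was at -2.04), P4HA2 of -0.57 and P4HA1 of -0.24, and neither hydroxylase then passed the threshold.

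Of the enzymes that work beside the members, those that share a complex with P4HA1 and P4HA2 or act at the same step were mostly lower. P4HB, the disulfide isomerase that is the second subunit of prolyl 4-hydroxylase, read 14.09, 14.06 and 14.07 on the control arrays and 13.54, 13.45 and 13.43 on the RNF43 siRNA arrays. It fell by 1.51-fold (limma adjusted p = 7.12e-05), and its 3 probe sets gave log2 differences of -0.60, -0.61 and -0.63. COLGALT1, which adds galactose to hydroxylysine, fell by 1.21-fold (adjusted p = 0.0351), a call lost in 8 of the 17 alternatives that tested it, including those without control siRNA replicate 2 or 3 or any 1 RNF43 siRNA array (adjusted p 0.00878 to 0.142). PLOD3, the remaining lysyl hydroxylase, had a log2 difference of 0.03 (SE 0.07, adjusted p = 0.801). These 3 were the tested members of a list of 5 for hydroxylation and glycosylation, with 2 called lower by limma, 0 higher (2 and 0 at an unadjusted p under 0.05) and a median of -0.27. Over all genes tested, limma called 11.1% lower and 11.5% higher. The share of all genes at an unadjusted p under 0.05 was not counted, here or for the lists below. Like the members, all these lists were chosen with earlier results of these data known. Their counts are therefore descriptions beside the shares of all genes and not independent support.

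Prolyl 3-hydroxylase modifies single prolines of the chain in a complex with CRTAP and the isomerase PPIB. Of 6 tested genes of this group 2 fell and 0 rose by limma (4 and 0 at an unadjusted p under 0.05), and the median log2 difference was -0.16. By adjusted p, 11.1% of all genes tested fell and 11.5% rose. Without a share at the unadjusted threshold the count of 4 cannot be judged. P3H1, a catalytic subunit of prolyl 3-hydroxylase, read 10.48, 10.56 and 10.45 on the control arrays and 9.99, 10.08 and 9.89 on the others, and fell by 1.43-fold (adjusted p = 0.00165). CRTAP fell by 1.13-fold (adjusted p = 0.0496), a call that was lost in 12 of 18 alternatives, among them those without any 1 array (0.0172 to 0.682). PPIB had a log2 difference of -0.15 (SE 0.06, adjusted p = 0.0974).

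Isomerases outside collagen folding were read beside the members, where 22.6% of all genes tested were called in either direction. Of 7 other FKBP genes tested, 0 fell and 1 rose by limma (1 fell and 2 rose at an unadjusted p under 0.05), with a median log2 difference of 0.16. The 22.6% is a share at the adjusted threshold, so the unadjusted counts cannot be judged by it. The one that rose was FKBP5, a cochaperone of steroid receptors, by 1.41-fold (adjusted p = 0.0107). Without control siRNA replicate 3 or RNF43 siRNA replicate 3 the count of rises was 2, and without RNF43 siRNA replicate 1 there was 1 fall. Of 14 other cyclophilins tested 1 fell and 1 rose, with a median of -0.06. RANBP2, a nuclear pore protein with a cyclophilin domain, rose 1.32-fold (adjusted p = 0.00212), and PPIF, the mitochondrial cyclophilin, fell by 1.20-fold (adjusted p = 0.0463). The PPIF call was lost in 10 of 18 alternatives, among them those without control siRNA replicate 1 or 3 or any 1 RNF43 siRNA array (0.00562 to 0.179).

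**Figure D3:**
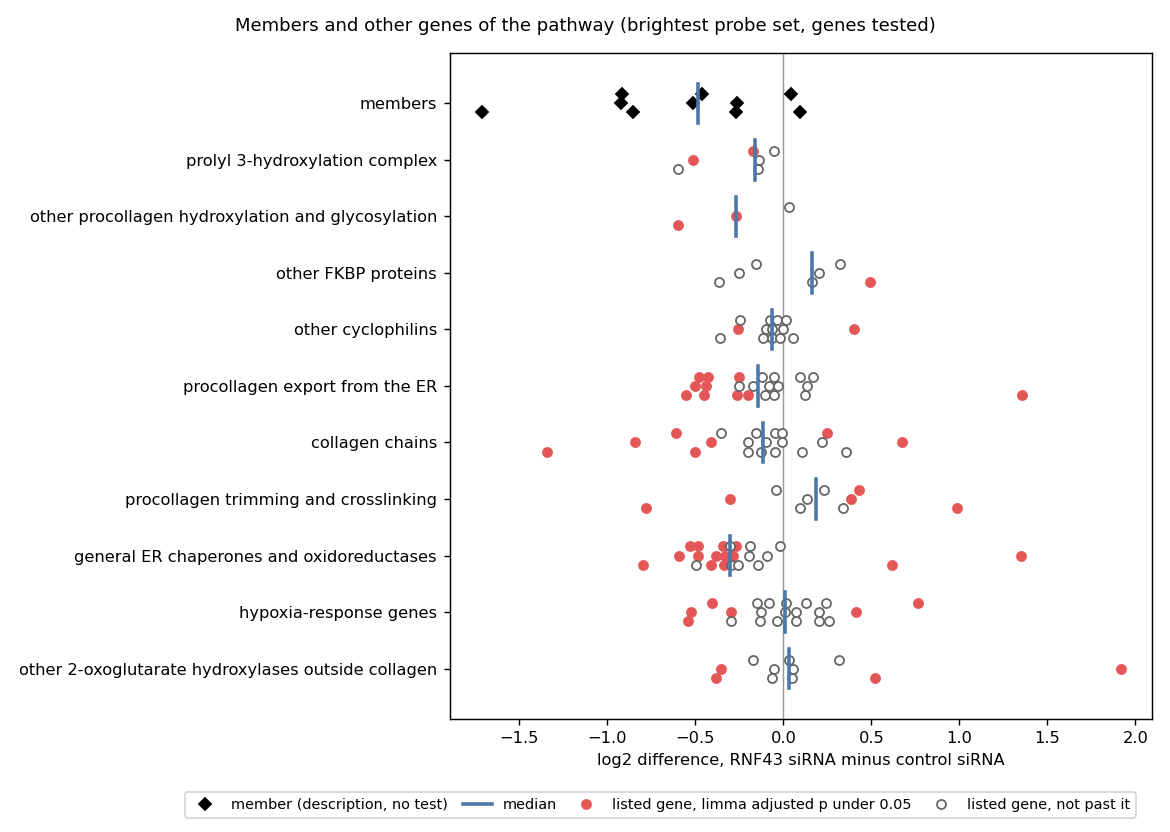
Log2 difference, RNF43 siRNA minus control siRNA, of each member (diamonds) and of each tested gene in 10 lists of neighbouring function (circles, filled where limma's adjusted p was under 0.05), with the median of each row as a bar. The members' median is -0.49, and the medians of the other lists lie between -0.30 and 0.18.

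Folded procollagen leaves the ER in large COPII carriers. Of 22 tested genes listed for export from the ER, not all of them particular to procollagen, 9 fell and 1 rose, with a median log2 difference of -0.15. Over all genes tested, 11.1% fell and 11.5% rose. SEC13, a coat subunit, fell by 1.42-fold (adjusted p = 0.00156) and KLHL12, a ubiquitin ligase adaptor that enlarges the carriers, by 1.37-fold (adjusted p = 0.00172). CREB3L2, a transcription factor of secretory genes in cartilage, fell by 1.40-fold (adjusted p = 0.00233). Its call was lost when its probe sets were averaged and without probe sets ending in _x_at or _s_at (6.53e-05 to 0.332). MCFD2, a cargo receptor subunit for clotting factors, was the gene that rose, by 2.56-fold (adjusted p = 1.99e-06). Averaged over its probe sets the log2 difference was 0.90 in place of 1.36.

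The collagen chains themselves were split. Of 20 tested chains 5 fell and 2 rose (11.1% and 11.5% of all genes tested), with a median log2 difference of -0.11. COL3A1, of fibrillar type III collagen, read 9.11, 8.97 and 9.25 on the control arrays and 7.86, 7.66 and 7.80 on the others, and fell by 2.54-fold (adjusted p = 4.94e-05). COL5A1, of type V collagen, fell by 1.80-fold (6.32e-04 adjusted) and COL4A1, of basement membranes, by 1.53-fold (1.32e-04 adjusted). COL4A4, of type IV collagen, rose 1.60-fold (adjusted p = 0.00638), a call lost when its probe sets were averaged (0.00205 to 0.763), and COL12A1 rose 1.19-fold (adjusted p = 0.0319). The COL12A1 call was lost in 6 of 18 alternatives, among them those without control siRNA replicate 1 or 2 or RNF43 siRNA replicate 1 or 2 (0.00658 to 0.318).

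Outside the cell, procollagen is trimmed and crosslinked. Of 10 tested genes for these steps 2 fell and 3 rose (11.1% and 11.5% of all genes tested). Their median log2 difference was 0.18, on the other side of 0 from the members. The crosslinking lysyl oxidases LOX, LOXL2 and LOXL3 rose 1.35-fold, 1.30-fold and 1.98-fold (adjusted p = 0.0112, 0.0122 and 0.0221). TLL1, a procollagen C-proteinase, and PCOLCE2, which enhances that cleavage, fell by 1.72-fold and 1.24-fold (adjusted p = 0.0240 and 0.0360). Each call was lost in some alternatives, for LOX only when its probe sets were averaged (0.00228 to 0.795), which gave a log2 difference of 0.06 in place of 0.43. The second LOX probe set was at -0.23. LOXL2 was lost without RNF43 siRNA replicate 2 and with no intensity trend (1.39e-04 to 0.0607), and LOXL3 without control siRNA replicate 1 or 2, RNF43 siRNA replicate 2 or 3, or the filter (0.0113 to 0.0785). TLL1 was lost in 6 of 17, among them without control siRNA replicate 1 or 2 or RNF43 siRNA replicate 1 or 2 (0.00688 to 0.156), and PCOLCE2 in 7 of 17, among them without control siRNA replicate 1 or 3 or any 1 RNF43 siRNA array (0.0152 to 0.141). After adding 64 to each linear signal, LOXL3 had a log2 difference of 0.56 in place of 0.99 and TLL1 of -0.51 in place of -0.78.

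Most general ER chaperones and oxidoreductases had differences below 0. Of 23 tested genes 12 fell and 2 rose, and 21 had a difference below 0, with a median of -0.30. Over all genes tested, 11.1% fell, 11.5% rose and 50.5% lay below 0. This list too was chosen with earlier results of these data known, so its counts are descriptions. The count of falls was 7 without control siRNA replicate 2. PRDX4, an ER peroxidase, fell by 1.74-fold (adjusted p = 1.03e-05), DNAJC3, a BiP co-chaperone, by 1.40-fold (6.62e-04 adjusted) and PDIA4, a disulfide isomerase, by 1.40-fold (adjusted p = 0.00246). ERO1B, which reoxidises disulfide isomerases, rose 2.55-fold (adjusted p = 2.57e-04) and DNAJB9, another BiP co-chaperone, 1.54-fold (4.25e-04 adjusted).

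P4HA1, P4HA2, PLOD1 and PLOD2 are known hypoxia-inducible genes, so a list of other hypoxia-response genes was read beside them. Of 21 tested 4 fell and 2 rose (11.1% and 11.5% of all genes tested), with a median of 0.0088. VEGFA, an angiogenic factor, fell by 1.33-fold (adjusted p = 0.00511), the carbonic anhydrase CA12 by 1.46-fold (6.94e-04 adjusted), PFKFB4, a regulator of glycolysis, by 1.44-fold (adjusted p = 0.00331; log2 difference -0.52, or -1.31 averaged over its probe sets) and the kinase PDK1 by 1.23-fold (adjusted p = 0.0289). BNIP3L, a mitophagy receptor, rose 1.70-fold (4.34e-04 adjusted) and NDRG1, a stress-induced gene, 1.33-fold (adjusted p = 0.00402). The PDK1 call was lost in 6 of 18 alternatives, among them without control siRNA replicate 1 or 2 or RNF43 siRNA replicate 1 (0.00546 to 0.666), and averaged over its probe sets the log2 difference was 0.33. Without control siRNA replicate 2 or 3 the count of rises was 4.

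Hydroxylases that share the members' cofactors but act on other substrates were split as well. Of 11 tested 2 fell and 2 rose (11.1% and 11.5% of all genes tested), with a median of 0.03. ASPH, which hydroxylates aspartate and asparagine in EGF-like domains, rose 3.77-fold on its brightest probe set (adjusted p = 1.74e-05). The ASPH probe sets were discordant: the second brightest had a log2 difference of -0.50 and was called lower in the fit over probe sets (limma adjusted p = 0.0038), and the third was at 2.14. HIF1AN, an asparaginyl hydroxylase of hypoxia factors, rose 1.44-fold (adjusted p = 0.0033). RIOX2, a histidyl hydroxylase of ribosomal protein, fell by 1.28-fold (adjusted p = 0.00472) and OGFOD1, a prolyl hydroxylase of ribosomal protein, by 1.30-fold (adjusted p = 0.0073). With the mean of their probe sets these 4 calls were lost (over all alternatives 1.65e-09 to 0.192 for ASPH, 7.09e-04 to 0.0664 for HIF1AN, 5.21e-04 to 0.785 for RIOX2 and 3.60e-04 to 0.227 for OGFOD1), and that of OGFOD1 also without control siRNA replicate 1 or 2 or RNF43 siRNA replicate 3.

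Of the 10 genes listed for fibroblasts and stellate cells, 4 of the 6 that passed the filter fell, COL3A1, DCN, ACTA2 and FAP, where 11.1% of all genes tested did. COL1A1 and LUM had log2 differences of -0.20 and -0.18 (limma adjusted p = 0.172 and 0.0926). The summed level of all 10, on the log2 scale of the summed linear signal, was 13.96 to 13.97 on the control arrays and 13.61 to 13.73 on the RNF43 siRNA arrays. LUM alone, with means of 13.36 and 13.17, made up most of that sum. The summed level of the 10 liver genes, 9 of them below the filter, was 8.57 to 8.97 and 8.04 to 8.51. Of 5 endothelial genes PECAM1 alone passed the filter and none was called, with a summed level of 7.43 to 7.57 and 7.60 to 7.90. None of the 4 matched leukocyte genes, PTPRC, CD3E, CD14 and LYZ, passed, and their sum was 5.68 to 6.92 and 5.37 to 6.90. Whether cell composition had a part in the members' differences was not tested. In whole cultures, fewer cells of a type and less RNA per cell cannot be told apart.

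The genes whose pattern over the 6 arrays was most like that of FKBP14, by the root mean square difference between log2 values centred on each gene's mean, were GANAB (0.12), MESD (0.16), ALDH1L2 (0.18), ACTG2 (0.19) and H2AC6 (0.19). GANAB, the catalytic subunit of the ER glucosidase that trims N-glycans, read 10.90, 11.09 and 11.19 on the control arrays and 9.32, 9.25 and 9.61 on the others, 3.18-fold lower. MESD, an ER chaperone of the Wnt co-receptors LRP5 and LRP6, read 12.51, 12.47 and 12.44 against 11.06, 10.86 and 10.69, 3.03-fold lower. ALDH1L2 is a mitochondrial folate enzyme, ACTG2 a smooth muscle actin and H2AC6 a histone H2A gene, and they were 3.11-fold, 2.70-fold and 2.72-fold lower. With 64 added to the linear signal ALDH1L2 had a log2 difference of -0.99 in place of -1.64. ACTG2 did not pass limma's threshold when its probe sets were averaged (adjusted p 1.65e-09 to 0.162 over all alternatives). MESD had log2 differences of -1.70 to -1.16 over the alternatives. The probe sets of GANAB and H2AC6 end in _x_at and _s_at, marks of probes that can bind related transcripts. Among the members, P4HA2 and FKBP7 were closest to FKBP14, at ranks 103 and 116 of 11852 genes, and FKBP11 was farthest, at rank 8235. Likeness here rests mainly on the size of the difference between the groups.

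**Figure D4:**
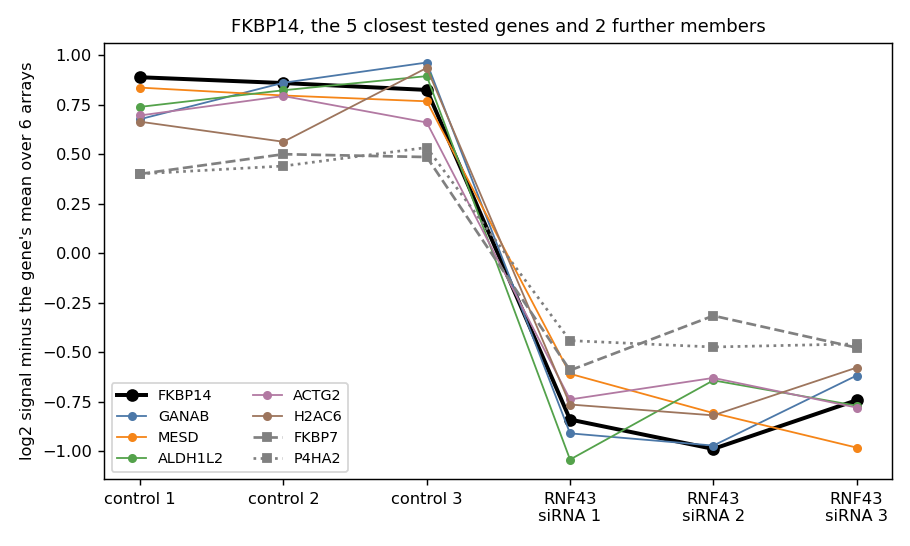
Log2 signal minus each gene's mean over the 6 arrays, by array, for FKBP14, the 5 tested genes closest to it and the members FKBP7 and P4HA2, with lines that only join the points of a gene. The 5 genes follow FKBP14 within 0.12 to 0.19 (root mean square), and FKBP7 and P4HA2 keep the direction with a smaller step.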

How the data were processed

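Messenger RNA was measured on 6 arrays, 3 per group. The authors deposited log2 values. They used MAS5 per the submitters' processing notes, which corrects each probe by its mismatch partner and then scales the array. Neither version nor target is given in the sources used here. Taken as base 2, linear means trimmed by 2% at each end were 497.03 to 497.23. Array medians were 5.89 to 6.02, and 391 to 628 values per array lay at the floor of 0, none of a member. No 2 arrays were identical. The number of arrays limits the precision.

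Values were used as given, and the unit needed no pseudocount. Symbols came from the platform annotation, updated through RefSeq (GRCh38.p14): 41091 probe sets named 1 gene, 1801 several and 11721 none here. A gene was read by its brightest probe set and tested if that lay in the upper 50% of probe sets. The comparison used limma 3.58.1, run in R 4.3.3 (intensity trend, Benjamini-Hochberg over all genes or probe sets, two-sided, threshold 0.05), after a test on simulated data. Of 11853 genes, 2684 (22.6%) were called; without RNF43 siRNA replicate 2, 1741 were. Members and lists were chosen with earlier results of these data known. Named genes were all members, every call of a list with up to 6 calls or else the 3 smallest p in each direction, and the 5 genes closest to FKBP14. Alternatives covered normalization, added signal, filter, variance model, array weights, probe set choice, replicate block and leaving out each array.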

Additional observations from a re-analysis of the deposited data

How the results depend on the processing

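Each member that passed the threshold kept its direction in all alternatives that read it, with FKBP14 at -1.77 to -1.32, and the members' median lay between -0.56 and -0.39. The alternatives reuse the same 6 arrays on which the members were chosen, so a kept direction is not further support. PLOD2 and FKBP11 changed sign in 3 of 17 and 2 of 18 alternatives. The count of changed genes was 1587 when the probe sets of a gene were averaged and lay between 1741 and 2656 without 1 array; it was 1741 without RNF43 siRNA replicate 2. The count of probe sets changed was 4001, and between 2147 and 4281 without 1 array, with 2319 and 2252 without control siRNA replicate 1 or 2 and 2147 without RNF43 siRNA replicate 2. The log2 difference of PDK1 became 0.33 when its probe sets were averaged, of which a dim one had a difference of 1.79. The number of a replicate was also tried as a block. Arrays with the same number deviated together only weakly (r = 0.16, 0.08 and 0.27 across genes), which does not show that the numbers pair them, though for 5 of the 6 arrays the closest array of the other group had their own number. With the replicate block 3908 genes and 5991 probe sets were called, and the same 8 members. RNF43 stayed higher on the arrays labelled RNF43 siRNA in all alternatives run for it (0.51 to 0.72). Low signal over background limits what can be read of the dimmest FKBP7, P4HA1 and P4HA2 probe sets.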
